A study of Mus musculus with 9 samples.

Results

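The 10 genes described here encode cytoskeletal proteins of the liver cell. They are the cytoplasmic actins Actb and Actg1, the alpha tubulins Tuba1a, Tuba1b, Tuba1c, Tuba4a and Tuba8, the beta tubulin Tubb2a and the keratins Krt8 and Krt18. They were taken by symbol from the 23337 genes of the deposited count tables, and all 10 were found. They were selected on earlier results from these same libraries, that is, with the fold changes between diets of these counts known. Thus the differences between diets given here are descriptions, and an adjusted p says where a gene stood among all genes tested and gives no independent support.

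RNA was sequenced from the liver of wild-type (WT) mice on 3 diets, with 3 libraries each. The ND mice received a normal diet, the HFD mice a high-fat diet labelled 60%, and the HFD_HDCA mice the same high-fat diet with 0.25% hyodeoxycholic acid (HDCA), a secondary bile acid. All groups started the diets at 8 weeks of age and continued them for 12 weeks, and all livers were collected in the fed state. Sex, strain, cage and litter are not given in the labels. Each p-value sets a group difference against the spread between these libraries, which may not be independent in cage or litter.

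Actin monomers assemble into the filaments of the cell cortex and of the sheath around the bile canaliculus. Alpha and beta tubulin form the dimers of microtubules, along which hepatocytes move vesicles, lipoproteins and lipid droplets, and free tubulin dimers are known to speed the decay of tubulin messages. Keratin 8 and keratin 18 pair into the intermediate filaments that give hepatocytes mechanical strength, while keratin 7 and keratin 19 mark the bile duct epithelium.

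The libraries held 16994353 to 20509203 reads on genes, and 3 reads, the limit that a count of 0 allows, corresponded to 0.151 to 0.182 CPM (counts scaled to library size after TMM correction). This floor covers counting error only. All 10 hepatocyte markers were detected, with Alb the most abundant, and their summed level was 102781 to 111949 CPM in ND, 116076 to 141507 in HFD and 121862 to 136191 in HFD_HDCA. Most of this sum was Alb, at 64712, 88121 and 84028 CPM in ND, HFD and HFD_HDCA (means, n = 3 each). Of the 10 markers, 2 were called lower and 0 higher for HFD_HDCA against ND by edgeR's quasi-likelihood test. At an unadjusted p under 0.05 there, 4 were higher and 2 lower. The fitted values of 4 of the 10 were negative, and the median log2 fold change of the 10 was 0.12. Cps1, encoding a urea cycle enzyme, had mean CPM of 3236 ± 371 in ND and 1500 ± 262 in HFD_HDCA (SD, n = 3 libraries each), with an adjusted p of 0.00620, and was called in all 9 fits that left out 1 library. Hnf4a, encoding a hepatocyte transcription factor, had mean CPM of 746 ± 35.1 in ND and 535 ± 54.5 in HFD_HDCA (SD, n = 3 libraries each), with an adjusted p of 0.0431, and was called only in the fits without HFD 1 or HFD_HDCA 2, with adjusted p up to 0.150. Their part in the cytoskeletal differences was not tested. HFD 1 stood apart in clock genes, where Dbp reached 85.8 CPM (at most 2.27 in HFD 2 and HFD 3) and Arntl was as low as 4.71 CPM (at least 37.6 there). HFD_HDCA 1 stood apart in acute phase genes, where Saa1 reached 3369 CPM (at most 38.0 in HFD_HDCA 2 and 3) and Lcn2 reached 331 CPM (at most 4.03 there). In bulk liver RNA, fewer cells of a type and less RNA per cell cannot be told apart.

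In livers of HFD_HDCA mice every library lay below every ND library for all 10 transcripts in CPM. Some gaps were narrow, as for Tubb2a at 73.1 CPM in HFD_HDCA 2 and 73.9 in ND 1. In deposited FPKM (levels per transcript length) the groups overlapped for Actg1 and Tubb2a. There HFD_HDCA 2 stood at 32.4 for Actg1, above ND 3 at 28.5, and at 50.8 for Tubb2a, above ND 1 at 50.7. The alpha tubulins Tuba1b, Tuba1c and Tuba4a and the keratin Krt8 were called lower, with folds between 1.79 and 2.41, by edgeR's quasi-likelihood test at an adjusted p under 0.05. Against HFD, Actg1, Tuba1c and Tuba4a were called lower with HDCA, by folds of 2.15 to 3.39, and Tuba8 was called higher by 4.14-fold. Between HFD and ND, Actg1 was called higher by 2.13-fold and Tuba8 lower by 8.41-fold.

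These counts stand beside what all 12587 tested genes did, and nothing is read from the pair, since the same comparisons were in view when the genes were chosen. For HFD against ND 0.953% of all genes were called, 0.477% in each direction, and of the 10 genes 1 was called higher and 1 lower. For HFD_HDCA against HFD the share was 3.4%, with 1.67% higher and 1.73% lower, and of the 10 genes 1 was called higher and 3 lower. For HFD_HDCA against ND it was 6.47%, with 3.65% higher and 2.82% lower, and of the 10 genes 0 were called higher and 4 lower. DESeq2 called 3.02%, 8.62% and 11.1% of all genes in the same order, and 2, 7 and 5 of the 10.

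The separations counted here are of CPM. Libraries of HFD_HDCA lay wholly below those of ND for 16.1% of all genes tested and for all 10 genes here. They lay wholly above those of ND for 17.8% and for 0. They lay wholly below those of HFD for 11.1% of all genes and for 7 of the 10, and wholly above for 11.3% and for Tuba8. HFD lay wholly above ND for 10.9% of all genes and for Actg1, and wholly below for 9.19% and for Tuba8 and Krt18. The median log2 fold change of the 10 was 0.10, -0.82 and -0.88 for HFD against ND, HFD_HDCA against HFD and HFD_HDCA against ND, beside 0.02, -0.0021 and 0.03 over all genes. Each diet enters a pair of the comparisons, so they share libraries and are not independent of each other. All 10 genes passed the filter on low counts. Tuba8 passed through its ND and HFD_HDCA libraries, since its counts in HFD were 4, 4 and 6 reads.

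**Figure D1:**
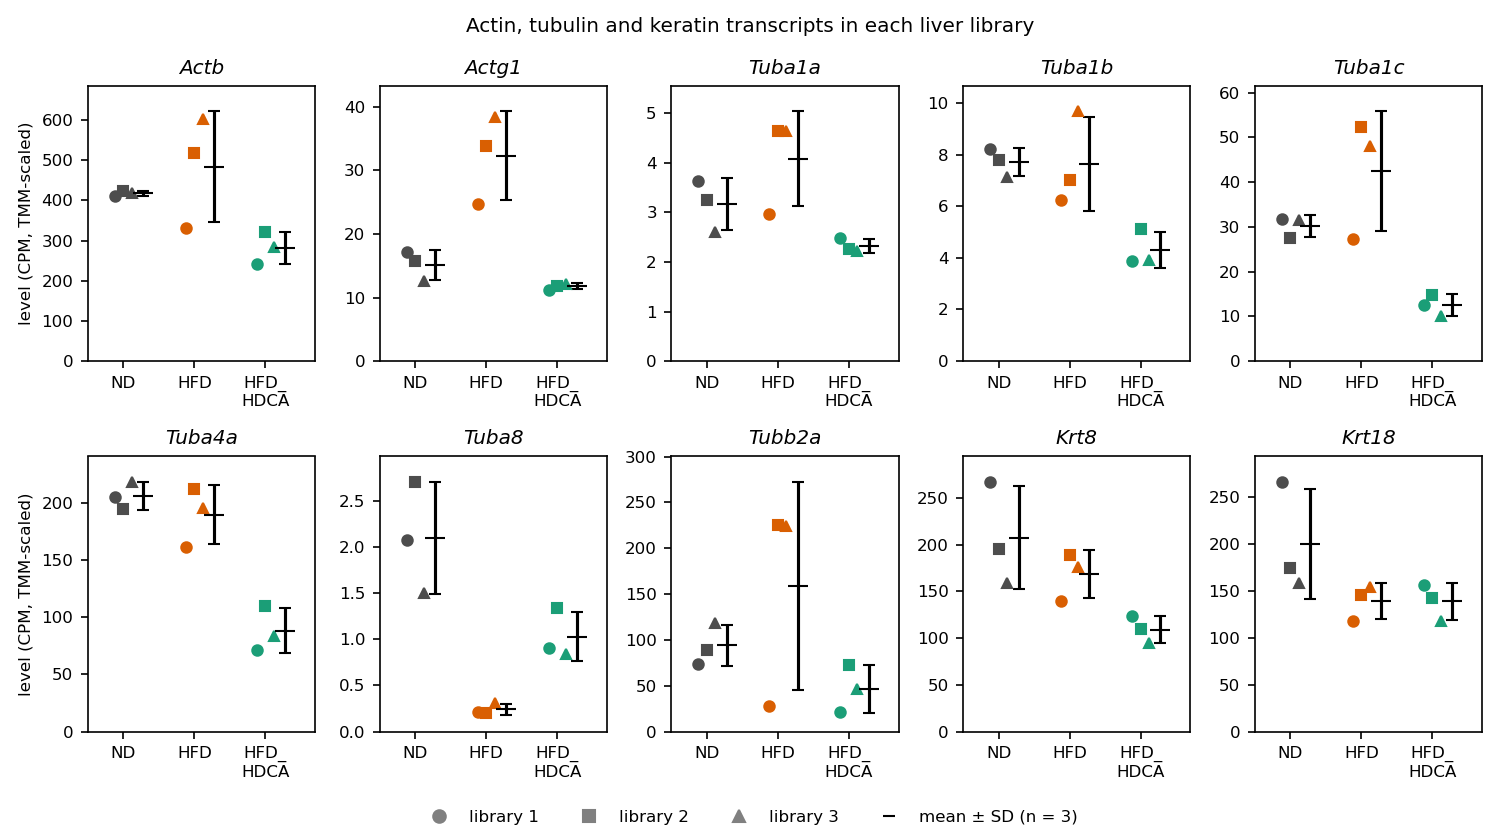
Level of each of the 10 transcripts (vertical axis, CPM on TMM-scaled library sizes, starting at 0) in the 3 libraries of each diet, with the mean and SD beside them. The HFD_HDCA libraries sit below the ND libraries in all 10 panels, Tuba8 is lowest in HFD at 0.202 to 0.312 CPM, and Tubb2a in HFD is split between 28.1 and about 225 CPM.

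Actb encodes beta-actin, the most abundant cytoplasmic actin, and Actg1 encodes gamma-actin, which differs from it at a few residues of the amino terminus. Both genes are found in nearly all cell types. Actb lies on chromosome 5 from 142903115 to 142906724 and Actg1 on chromosome 11 from 120345689 to 120348484 (mm10, as deposited). Over the 1128 coding bases of each, the pair was 88.7% identical.

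Actg1 stood at 17.1, 15.8 and 12.5 CPM in ND 1 to 3, at 24.7, 33.8 and 38.5 CPM in HFD 1 to 3, and at 11.3, 11.8 and 12.2 CPM in HFD_HDCA 1 to 3. In CPM all HFD libraries were above all others, and all HFD_HDCA libraries were below all others. In FPKM the HFD libraries were again above all others, but HFD_HDCA 2 and 3 (32.4 and 29.9) were above ND 3 (28.5). Mean Actg1 was 15.2 ± 2.36 CPM in ND, 32.3 ± 7.02 in HFD and 11.8 ± 0.477 in HFD_HDCA (SD, n = 3 each). The fitted log2 fold change was 1.09 ± 0.17 (SE) for HFD against ND, with an adjusted p of 0.0199 in edgeR's quasi-likelihood test. This call rested on several libraries. Without HFD 2, HFD 3, ND 1, ND 2 or ND 3 the adjusted p was 0.0671, 0.0632, 0.0534, 0.0733 and 0.0880, with log2 fold changes of 0.95 to 1.19. With HDCA, Actg1 was lower than in HFD by a log2 fold change of -1.46 ± 0.17 (SE, adjusted p = 0.00343), a call made in all 9 fits that left out 1 library. Against ND the HFD_HDCA difference was -0.37 ± 0.17 on the log2 scale (SE, adjusted p = 0.213).

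Actb stood at 411, 424 and 419 CPM in ND 1 to 3, at 331, 519 and 601 CPM in HFD 1 to 3, and at 242, 320 and 283 CPM in HFD_HDCA 1 to 3. The ND libraries were close together, the HFD libraries fell on both sides of them, and all HFD_HDCA libraries were below all others. The log2 fold change was 0.21 ± 0.20 for HFD against ND, -0.78 ± 0.20 for HFD_HDCA against HFD and -0.57 ± 0.20 for HFD_HDCA against ND (SE), with adjusted p of 0.756, 0.0598 and 0.109 in edgeR's quasi-likelihood test. Without HFD 1 the adjusted p was 0.00684 for HFD_HDCA against HFD, at a log2 fold change of -0.99, and 0.0290 for HFD_HDCA against ND.

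The balance of the actins was set out per length, as FPKM (fragments per length of transcript and per mapped fragments of the library), because counts of different genes are not comparable. The Actb to Actg1 ratio of FPKM levels was 3.75, 4.35 and 5.91 in ND, 2.21, 2.41 and 2.86 in HFD, and 3.73, 4.24 and 3.89 in HFD_HDCA. The HFD ratios lay below all others, and those of ND and HFD_HDCA overlapped. The summed FPKM of both genes was 197 to 219 in ND, 217 to 366 in HFD and 120 to 169 in HFD_HDCA.

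Other cell types also carry actin transcripts, and their markers varied between libraries. Acta2, the smooth muscle actin, was at 38.4 CPM in HFD 2 and at 0.983 to 14.1 CPM in the other 8 libraries. The 8 smooth muscle markers, all detected, summed to 16.4 to 30.6 CPM in ND, 18.0 to 119.6 in HFD and 10.9 to 50.7 in HFD_HDCA. The 18 macrophage markers, all detected, summed to 654 to 767 CPM in ND, 245 to 1316 in HFD and 582 to 1073 in HFD_HDCA, with the lowest sum in HFD 2 and the highest in HFD 3. The part of these cells in the actin differences was not tested.

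The Actg1 promoter is shown for its CArG box, the motif known to bind serum response factor, whose cofactors are held back by free actin monomers. No promoter was found for Actb, so that of Actb was not searched. Of the 9 promoters found for the 10 genes, that of Actg1 alone held the box. The box, in capitals, began 90 bases before the annotated start, and 1.63% of 32851 promoters of the same length held the motif on either strand. The window covers chr11:120348446-120348745 on the minus strand (RefSeq, GRCm38.p6), and a match of letters is a description, not a measured site.
Actg1: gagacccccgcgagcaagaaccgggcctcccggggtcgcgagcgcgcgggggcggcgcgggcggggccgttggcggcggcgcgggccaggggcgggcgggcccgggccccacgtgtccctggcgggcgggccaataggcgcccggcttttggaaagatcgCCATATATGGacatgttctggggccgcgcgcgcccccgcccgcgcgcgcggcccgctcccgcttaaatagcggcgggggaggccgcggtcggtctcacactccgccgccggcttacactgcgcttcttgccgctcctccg

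Of 24 genes of the serum response factor axis, 20 were tested, and the Actg1 pattern can be read beside them. For HFD against ND 0 were called by edgeR's quasi-likelihood test (2 at an unadjusted p under 0.05), and 0 by DESeq2 or by limma on FPKM. Ctgf, encoding a secreted matrix protein, was called lower in both HDCA comparisons and was the only one of the 20 called by edgeR, where DESeq2 called 4 and 2. Ctgf stood at 24.6, 14.0 and 11.3 CPM in ND, at 14.0, 7.32 and 8.90 CPM in HFD, and at 2.72, 2.27 and 2.16 CPM in HFD_HDCA. The HFD_HDCA libraries were below all others, by log2 fold changes of -2.08 ± 0.35 against HFD (SE, adjusted p = 0.0144) and -2.80 ± 0.35 against ND (SE, adjusted p = 0.00279). Without HFD_HDCA 3 the adjusted p against HFD was 0.0659. The median log2 fold change of the 20 was 0.07, -0.56 and -0.31 for HFD against ND, HFD_HDCA against HFD and HFD_HDCA against ND.

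The alpha tubulins fall into a closely related trio, Tuba1a, Tuba1b and Tuba1c, and the more distant Tuba4a and Tuba8. The trio lies within 107 kb on chromosome 15, with Tuba1b from 98931430 to 98934390, Tuba1a from 98949846 to 98953501 and Tuba1c from 99029890 to 99038105. Tuba4a lies on chromosome 1 from 75214973 to 75219253, and Tuba8 on chromosome 6 from 121210769 to 121226097. Over the first 1300 coding bases Tuba1b and Tuba1c differed at 8 positions (99.4% identity), while Tuba4a and Tuba8 were 86.4% and 80.2% identical to Tuba1b.

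Tuba4a was the most abundant alpha tubulin, at 37.3 to 50.7% of the summed alpha-tubulin FPKM in every library. It stood at 205, 194 and 219 CPM in ND 1 to 3, at 161, 212 and 196 CPM in HFD 1 to 3, and at 71.6, 110.1 and 83.4 CPM in HFD_HDCA 1 to 3. The ND and HFD libraries overlapped, and all HFD_HDCA libraries lay far below both. The log2 fold change was -0.12 ± 0.16 for HFD against ND (SE, adjusted p = 0.842). With HDCA it was -1.10 ± 0.17 against HFD (SE, adjusted p = 0.00926) and -1.22 ± 0.17 against ND (SE, adjusted p = 0.00380), and both calls were made in all 9 fits that left out 1 library. The deposited Tuba4a locus overlaps that of the kinase gene Stk16 over 634 bases, and the strand option of the counting is not given in the sources used here beyond the word antisense in the names of the count files, so it is not known to which gene reads of the overlap were assigned. Stk16 stood at 76.6 to 81.2 CPM in ND, 76.2 to 99.8 in HFD and 112 to 136 in HFD_HDCA, the opposite direction to Tuba4a.

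Tuba1c stood at 31.8, 27.4 and 31.5 CPM in ND 1 to 3, at 27.2, 52.3 and 48.0 CPM in HFD 1 to 3, and at 12.6, 14.9 and 10.1 CPM in HFD_HDCA 1 to 3. The HFD_HDCA libraries were below all others, and HFD 1 sat with the ND libraries. The fall with HDCA was -1.76 ± 0.23 against HFD (log2, SE, adjusted p = 0.00617), called in all 9 fits that left out 1 library. Against ND it was -1.27 ± 0.23 (log2, SE, adjusted p = 0.0136), and the adjusted p was 0.0576 without HFD_HDCA 3 and 0.0625 without ND 1. For HFD against ND the log2 fold change was 0.49 ± 0.22 (SE, adjusted p = 0.447), and without HFD 1 it was 0.73 (adjusted p = 0.0487).

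Tuba1b and Tuba1a had low counts. Tuba1b stood at 8.22, 7.80 and 7.11 CPM in ND, at 6.23, 7.02 and 9.68 CPM in HFD, and at 3.87, 5.11 and 3.91 CPM in HFD_HDCA. Its log2 fold change was -0.013 ± 0.19 for HFD against ND (adjusted p = 0.988), -0.83 ± 0.20 for HFD_HDCA against HFD (adjusted p = 0.0523) and -0.84 ± 0.20 for HFD_HDCA against ND (SE, adjusted p = 0.0363). The last was called, and its adjusted p was 0.0904, 0.121, 0.139, 0.107 and 0.0769 without HFD_HDCA 1, HFD_HDCA 3, ND 1, ND 2 and ND 3. Against HFD the adjusted p was 0.0307 without HFD 1 and 0.0478 without HFD_HDCA 2. Tuba1a stood at 3.64, 3.25 and 2.6 CPM in ND, at 2.98, 4.64 and 4.63 CPM in HFD, and at 2.48, 2.27 and 2.23 CPM in HFD_HDCA. The Tuba1a HFD_HDCA libraries were below all others, with log2 fold changes of -0.81 ± 0.24 against HFD (SE, adjusted p = 0.0892) and -0.45 ± 0.24 against ND (SE, adjusted p = 0.260). Without HFD 1 the adjusted p against HFD was 0.0357.

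**Figure D2:**
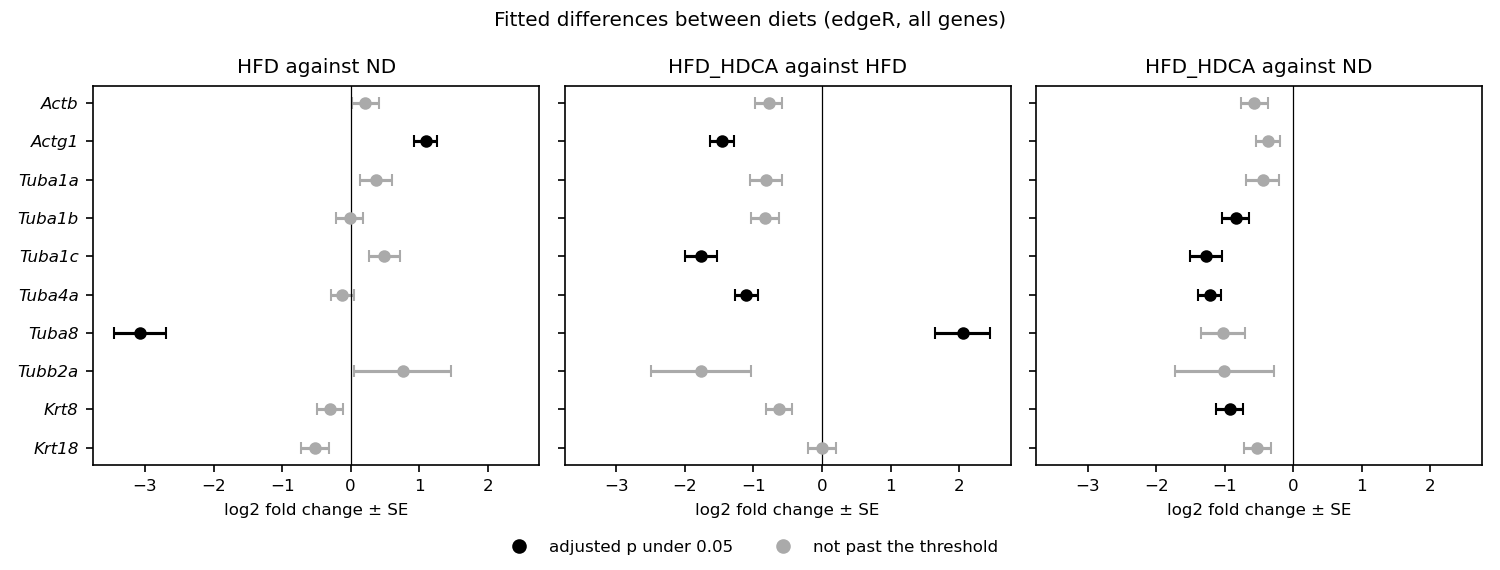
Fitted log2 fold change (horizontal axis) with its SE for each of the 10 genes in the 3 comparisons, with black points for an adjusted p under 0.05 over all 12587 genes. All 10 points are below 0 for HFD_HDCA against ND, and Tuba8 lies at -3.07 for HFD against ND and at 2.05 for HFD_HDCA against HFD.

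Tuba8, the alpha tubulin with the least sequence in common with the others, was rare and moved apart from them. It stood at 2.08, 2.71 and 1.5 CPM in ND (40, 50 and 26 reads), at 0.217, 0.202 and 0.312 CPM in HFD (4, 4 and 6 reads), and at 0.908, 1.34 and 0.842 CPM in HFD_HDCA (15, 23 and 14 reads). The 3 groups did not overlap, with HFD lowest, HFD_HDCA between and ND highest. The fall between ND and HFD was a log2 fold change of -3.07 ± 0.38 (SE, adjusted p = 0.00695) and was called in all 9 fits that left out 1 library. With HDCA, Tuba8 was higher than in HFD by 2.05 ± 0.41 (log2, SE, adjusted p = 0.0278), and the adjusted p was 0.0844, 0.0604, 0.0602 and 0.0527 without HFD 2, HFD 3, HFD_HDCA 3 and ND 1. Against ND the HFD_HDCA difference was -1.02 ± 0.32 (log2, SE, adjusted p = 0.0874). Both HFD comparisons rest on the same 14 reads, close to the floor of 3 reads per library.

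The deposited FPKM and the counts gave different pictures of the trio. Counts of HTSeq leave out reads that align to several places, which were 16.6 to 19.4% of the reads in a file in ND, 13.3 to 14.0% in HFD and 14.5 to 16.0% in HFD_HDCA. Reads ambiguous between genes were 1.45 to 1.69%, 0.813 to 0.977% and 1.04 to 1.23% in the same order. The 3 diets did not overlap in either share, whose part in the counts of the trio and Actg1 was not tested. In ND, FPKM divided by CPM per kilobase of transcript was 8.35 for Tuba1a, 7.36 for Tuba1b, 4.91 for Actg1 and 2.16 for Tuba1c, and 0.788 to 1.28 for the other 6 genes. The genes with high values were those with the largest share of 50-base words that also occur, on either strand, in transcripts of other genes: 83.1% for Tuba1b, 75.5% for Tuba1a, 61.0% for Tuba1c and 56.7% for Actg1. The shared words of Actg1 were mostly those of Gm12715, whereas those of the trio were mostly each other's. For Tubb2a the share was 49.6%, mostly with Tubb2b, and for Krt8 29.7%, mostly with Krt8-ps. For Tuba4a it was 48.8%, mostly with Stk16, whose locus overlaps that of Tuba4a. It was 14.7% for Tuba8, 14.2% for Actb and 0.720% for Krt18. Counts of the 4 genes with the highest shares are uncertain as levels.

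For HFD_HDCA against HFD, the log2 fold changes of Tuba1a and Tuba1b were -0.81 and -0.83 in counts and -1.45 and -1.43 on log2(FPKM + 0.1). The adjusted p of limma on the FPKM was 0.00968 for Tuba1a and 0.00809 for Tuba1b, so both fell there. For HFD_HDCA against ND the FPKM differences were -1.01 (adjusted p = 0.0249) and -1.07 (adjusted p = 0.0145). The cause of the gap between the units was not tested. The summed FPKM of the 5 alpha tubulins was 154 to 163 in ND, 143 to 214 in HFD and 59.5 to 87.9 in HFD_HDCA. That of the trio alone was 76.7 to 85.5 in ND, 76.7 to 134 in HFD and 33.4 to 44.4 in HFD_HDCA, and for both sums the HFD_HDCA libraries were below all others.

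**Figure D3:**
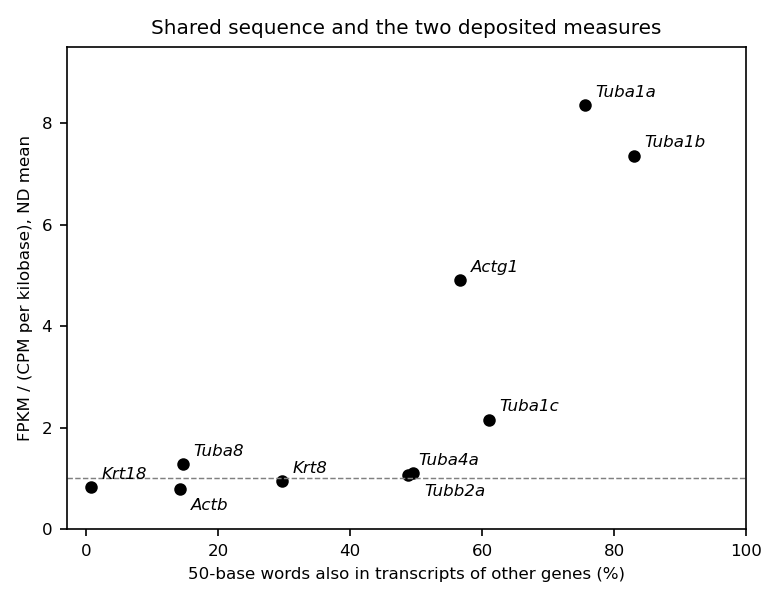
FPKM divided by CPM per kilobase in ND (vertical axis) against the percent of 50-base words of each transcript that also occur in transcripts of other genes (horizontal axis), for the 10 genes, with a dashed line at 1. Tuba1a, Tuba1b, Actg1 and Tuba1c, the genes with shares of 56.7 to 83.1%, stand at 2.16 to 8.35, and the other 6 lie near 1. The shared words of Tuba4a are mostly those of Stk16, whose locus overlaps that of Tuba4a.

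Tubb2a, a beta tubulin whose product pairs with alpha tubulin, had the widest relative spread of the 10 genes within HFD and within HFD_HDCA. It lies on chromosome 13 from 34074279 to 34078008. It stood at 73.9, 89.3 and 119 CPM in ND 1 to 3, at 28.1, 225 and 224 CPM in HFD 1 to 3, and at 21.1, 73.1 and 46.3 CPM in HFD_HDCA 1 to 3. The library numbered 1 was the lowest of its group in all 3 groups, and HFD 1 was below all ND libraries while HFD 2 and HFD 3 were above them. The log2 fold change was 0.76 ± 0.71 for HFD against ND, -1.76 ± 0.73 for HFD_HDCA against HFD and -1.0 ± 0.72 for HFD_HDCA against ND (SE), with adjusted p of 0.757, 0.207 and 0.405 in edgeR's quasi-likelihood test. Without HFD 1 the difference between HFD_HDCA and HFD was -2.26 ± 0.44 on the log2 scale (SE, adjusted p = 0.0344). The libraries numbered 1 also had the highest Dbp of their groups, at 14.6, 85.8 and 10.5 CPM in ND 1, HFD 1 and HFD_HDCA 1 against at most 3.58 CPM in the other 6, and its part in the Tubb2a values was not tested. HFD 1 was the lowest HFD library for 9 of the 10 genes.

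The Tubb2a promoter is shown because this gene had the widest range of the 10 over the diets and its libraries, apart from the low counts of Tuba8, at 10.7-fold from the lowest to the highest. Capitals mark TGACGTCA, the palindromic cAMP response element, which began 59 bases before the annotated start, and TATAAA, which began 29 bases before it. On either strand 1.79% of the 32851 promoters held TGACGTCA and 13.6% held TATAAA, and among the 9 promoters here TATAAA was also found in that of Krt8. The 2 motifs do not overlap. The window covers chr13:34077959-34078258 on the minus strand (RefSeq, GRCm38.p6).
Tubb2a: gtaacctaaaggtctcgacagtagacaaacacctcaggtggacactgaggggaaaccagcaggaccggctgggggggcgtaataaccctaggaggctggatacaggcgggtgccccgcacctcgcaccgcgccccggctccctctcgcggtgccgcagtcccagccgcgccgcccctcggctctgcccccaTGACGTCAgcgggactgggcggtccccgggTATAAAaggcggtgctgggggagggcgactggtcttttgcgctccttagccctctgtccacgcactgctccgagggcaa

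Some other tubulins were also lower with HDCA. Of 14 further tubulin genes 6 were tested. For HFD against ND 0 were called by edgeR's quasi-likelihood test (0 at an unadjusted p under 0.05), and 0 by DESeq2 or limma on FPKM. For HFD_HDCA against HFD 2 were called lower and for HFD_HDCA against ND 3, where DESeq2 called 3 and 3 and limma on FPKM 2 and 2. Of all genes edgeR called 1.73% and 2.82% lower in these HDCA comparisons, and DESeq2 called 8.62% and 11.1% in either direction. The share that limma called on FPKM is not given here. The fitted values of all 6 were negative against HFD and those of 5 against ND, the exception being Tubd1 at 3.57 against 3.35 CPM (log2 fold change 0.09, adjusted p = 0.818). Tubb4b, a widely used beta tubulin, stood at 117, 113 and 118 CPM in ND, at 82.3, 116 and 117 CPM in HFD, and at 48.0, 70.4 and 61.1 CPM in HFD_HDCA. The HFD_HDCA libraries of Tubb4b were below all others, with log2 fold changes of -0.81 ± 0.17 against HFD (SE, adjusted p = 0.0297) and -0.95 ± 0.17 against ND (SE, adjusted p = 0.0107). The call against HFD was lost without any of ND 1, ND 2, ND 3, HFD 2, HFD 3, HFD_HDCA 1 or HFD_HDCA 3, with adjusted p up to 0.0979, and the call against ND without ND 1 (0.0509). Tubb5 was lower in HFD_HDCA than in ND, at 42.4 ± 4.29 against 75.2 ± 1.56 CPM (SD, n = 3 each), by -0.83 ± 0.17 (log2, SE, adjusted p = 0.0208), which was lost without ND 1, ND 2, ND 3, HFD_HDCA 1 or HFD_HDCA 3, with adjusted p up to 0.0803. Tubb6 stood at 6.81 ± 2.79 CPM in ND, 7.62 ± 2.83 in HFD and 2.40 ± 0.295 in HFD_HDCA (SD, n = 3 each), with adjusted p of 0.0356 against HFD and 0.0349 against ND. For Tubb6 leaving out ND 2 or any HFD_HDCA library ended both calls, HFD 2 or HFD 3 that against HFD and ND 1 that against ND, with adjusted p up to 0.139. The summed FPKM of 8 beta tubulins was 166 to 198 in ND, 105 to 317 in HFD and 60.6 to 126.7 in HFD_HDCA, and Tubb2a made up 20.4 to 53.4% of it.

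Genes that fold, modify or bind tubulin went both ways. All 42 were tested, and edgeR's quasi-likelihood test called 0 for HFD against ND, with 1 at an unadjusted p under 0.05 and 1 in DESeq2. It called 0 for HFD_HDCA against HFD, with 8 at an unadjusted p under 0.05 and 2 in DESeq2, and 1 higher for HFD_HDCA against ND, with 15 at an unadjusted p under 0.05 (8 higher and 7 lower) and 5 in DESeq2. The edgeR call was Tbcc, encoding tubulin cofactor C, at 10.5 against 5.55 CPM, a log2 fold change of 0.92 ± 0.18 (SE, adjusted p = 0.0168), lost without ND 1, ND 2, ND 3 or HFD_HDCA 3 with adjusted p up to 0.0692. DESeq2 also called 3 motor and microtubule binding genes lower there, among them Dync1h1, the heavy chain of cytoplasmic dynein, at 86.7 against 129 CPM (adjusted p = 0.0233 in DESeq2 and 0.0753 in edgeR). The median log2 fold change of the list was -0.03, 0.03 and -0.0079 for HFD against ND, HFD_HDCA against HFD and HFD_HDCA against ND. The 12 markers of dividing cells, all detected, summed to 29.5 to 40.4 CPM in ND, 36.2 to 68.9 in HFD and 26.7 to 49.5 in HFD_HDCA. Pcna, the most abundant, had means of 17.9, 19.6 and 19.3 CPM. The median log2 fold change of the 12 was 0.67, -0.71 and 0.01 for HFD against ND, HFD_HDCA against HFD and HFD_HDCA against ND. The only call was Rrm2, lower for HFD_HDCA against HFD (adjusted p = 0.0425, edgeR's quasi-likelihood test). It was called in 2 of the 9 fits that left out 1 library. The part of these markers in the tubulin differences was not tested.

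Krt8 and Krt18 encode the only keratins usually abundant in hepatocytes, and each protein is unstable without its partner. They lie on chromosome 15, Krt8 from 101996710 to 102004342 and Krt18 from 102028215 to 102032026, 23.9 kb apart. Krt8 stood at 268, 195 and 160 CPM in ND 1 to 3, at 139.8, 189 and 176 CPM in HFD 1 to 3, and at 124, 109.5 and 94.4 CPM in HFD_HDCA 1 to 3. The HFD_HDCA libraries were below all others, and ND and HFD overlapped. The log2 fold change was -0.30 ± 0.19 for HFD against ND, -0.62 ± 0.19 for HFD_HDCA against HFD and -0.93 ± 0.20 for HFD_HDCA against ND (SE), with adjusted p of 0.622, 0.103 and 0.0220 in edgeR's quasi-likelihood test. The call against ND was lost without HFD_HDCA 3 (adjusted p = 0.0851), ND 1 (0.0898) or ND 2 (0.0591).

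Krt18 did not follow Krt8 in every comparison. It stood at 266, 175 and 158 CPM in ND 1 to 3, at 117, 146 and 154 CPM in HFD 1 to 3, and at 156, 143 and 117 CPM in HFD_HDCA 1 to 3. In CPM the ND libraries were above all others, and HFD and HFD_HDCA covered the same range. In FPKM ND and HFD overlapped, with HFD 3 at 97.3 and ND 3 at 88.5. The log2 fold change was -0.52 ± 0.20 for HFD against ND, -0.0025 ± 0.20 for HFD_HDCA against HFD and -0.53 ± 0.20 for HFD_HDCA against ND (SE), with adjusted p of 0.340, 0.996 and 0.133.

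The ratio of Krt18 to Krt8 FPKM levels separated the groups. It was 1.19, 1.08 and 1.19 in ND, 1.02, 0.924 and 1.06 in HFD, and 1.53, 1.57 and 1.49 in HFD_HDCA. The 3 groups did not overlap, with HFD lowest and HFD_HDCA highest, and the mean ratio was 1.15 ± 0.0631, 0.999 ± 0.0676 and 1.53 ± 0.0395 in ND, HFD and HFD_HDCA (SD, n = 3 each). An exact permutation test of 3 libraries against 3 cannot go below p = 0.1, and none was run on this ratio, which was looked at after its values were seen.

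**Figure D4:**
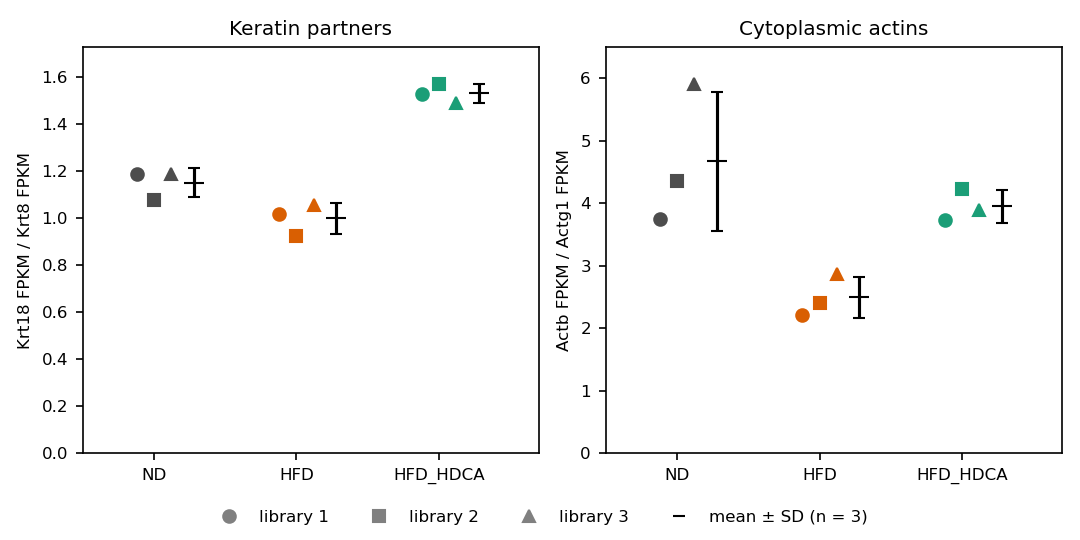
Ratio of deposited FPKM levels (vertical axes, starting at 0) in each library, Krt18 over Krt8 on the left and Actb over Actg1 on the right, with the mean and SD of each diet. The keratin ratio lies between 1.49 and 1.57 in HFD_HDCA and at or below 1.19 elsewhere, and the actin ratio is lowest in HFD, at 2.21 to 2.86.

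Keratins of other epithelia were scarce. Of 17 further keratin genes 4 were tested, and 0 were called in any comparison by edgeR's quasi-likelihood test, DESeq2 or limma on FPKM (0, 0 and 2 at an unadjusted p under 0.05 in edgeR). The most abundant, Krt23, was at 2.31 ± 1.15 CPM in ND, 5.06 ± 2.68 in HFD and 11.1 ± 8.69 in HFD_HDCA (SD, n = 3 each), and Krt10 was at 1.53 ± 0.125, 1.80 ± 0.780 and 2.97 ± 0.813 CPM. The bile duct keratins Krt7 and Krt19 were at 0.271 to 1.62 and 0.962 to 2.79 CPM over the 9 libraries. The 13 bile duct markers, all detected, summed to 69.1 to 78.4 CPM in ND, 68.4 to 113.6 in HFD and 77.7 to 146.3 in HFD_HDCA, and their part in the keratin differences was not tested. Of 11 genes found with keratin aggregates in stressed hepatocytes, all 11 were tested and edgeR's quasi-likelihood test called 0 (0, 1 and 2 at an unadjusted p under 0.05). DESeq2 called 0, 1 and 1 for HFD against ND, HFD_HDCA against HFD and HFD_HDCA against ND. Sqstm1, encoding the ubiquitin adaptor p62, was at 501 ± 46.8, 412 ± 33.1 and 496 ± 55.1 CPM in ND, HFD and HFD_HDCA (SD, n = 3 each). Nbr1, a related adaptor, differed between diets by log2 fold changes of -0.01, -0.04 and -0.05 for HFD against ND, HFD_HDCA against HFD and HFD_HDCA against ND.

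Linkers and actin partners gave more calls in DESeq2 than in edgeR, as did all genes tested. For HFD against ND edgeR called 0.953% of all genes and DESeq2 3.02%. The shares were 3.4% and 8.62% for HFD_HDCA against HFD, and 6.47% and 11.1% for HFD_HDCA against ND. Of 13 tested intermediate filament and linker genes, Jup, encoding plakoglobin, was lower for HFD_HDCA against HFD (log2 fold change -0.47 ± 0.11, SE, adjusted p = 0.0495). Plec, encoding the keratin linker plectin, was lower for HFD_HDCA against ND (-0.60 ± 0.13, SE, adjusted p = 0.0258), and 0 were called for HFD against ND (2 at an unadjusted p under 0.05, edgeR's quasi-likelihood test; 0 by DESeq2 or limma on FPKM). DESeq2 called Jup and Ppl, encoding periplakin, for HFD_HDCA against HFD, and Plec and Eppk1, encoding epiplakin, for HFD_HDCA against ND. All 13 fitted values were negative for HFD_HDCA against HFD. Their median log2 fold change was -0.43, beside -0.0021 over all genes tested. With 1 library left out, Jup was called only in the fit without HFD_HDCA 2, with adjusted p up to 0.159 in the others. The Plec call was lost without ND 1, ND 2 or any HFD_HDCA library, with adjusted p up to 0.125.

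Of 33 tested genes for actin monomer binding, nucleation and turnover, 1 was called in the 3 comparisons together, where DESeq2 called 3. This was the formin gene Diap2 (now Diaph2), lower for HFD_HDCA against ND by -0.45 ± 0.11 (log2, SE, adjusted p = 0.0340) and lost without ND 1, ND 2, ND 3, HFD_HDCA 1 or HFD_HDCA 3, with adjusted p up to 0.151. Of 33 tested bundling, crosslinking and contractile genes, Myh10, a nonmuscle myosin heavy chain, was at 26.8, 23.1 and 23.6 CPM in ND, at 14.1, 14.7 and 14.8 CPM in HFD, and at 12.2, 13.0 and 10.2 CPM in HFD_HDCA. The 3 groups of Myh10 did not overlap. Its log2 fold change was -0.75 ± 0.12 for HFD against ND (SE, adjusted p = 0.0225, lost without ND 1, ND 2, ND 3, HFD 2 or HFD 3 with adjusted p up to 0.0917) and -1.05 ± 0.12 for HFD_HDCA against ND (SE, adjusted p = 0.00180, called in all 9 fits that left out 1 library).

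Pls3, encoding an actin bundling plastin, was lower in HFD_HDCA, at 72.3 ± 6.88 CPM against 120.4 ± 14.2 in HFD and 104 ± 3.35 in ND (SD, n = 3 each). Its adjusted p was 0.0118 against HFD, lost without HFD_HDCA 3 (0.0527), and 0.0260 against ND, lost without ND 1, ND 2, ND 3 or HFD_HDCA 3 (up to 0.113). Lcp1, the plastin of white blood cells, was lower in HFD_HDCA than in ND by -0.50 ± 0.10 (log2, SE, adjusted p = 0.0196), lost without ND 1, ND 2, ND 3 or HFD_HDCA 3 (up to 0.0818). Of these 33 bundling and contractile genes edgeR called 1, 1 and 3, and DESeq2 2, 8 and 6, for HFD against ND, HFD_HDCA against HFD and HFD_HDCA against ND. For HFD_HDCA against HFD 31 of the 33 fitted values were negative, beside a median log2 fold change of -0.0021 over all genes tested. Of the 33, 12 were lower at an unadjusted p under 0.05, and the share of all genes at that p is not given here. Among the genes that DESeq2 alone called in both HDCA comparisons, Myh9, a nonmuscle myosin heavy chain, was at 119 CPM in ND, 119.7 in HFD and 76.4 in HFD_HDCA (means, n = 3 each). Its edgeR adjusted p was 0.0797 against HFD and 0.0642 against ND, and that of DESeq2 0.0195 and 0.0139. The median log2 fold change of the list was 0.11, -0.29 and -0.26 for HFD against ND, HFD_HDCA against HFD and HFD_HDCA against ND. The only other actin gene tested of 4, Acta2, had adjusted p of 0.598, 0.572 and 0.714 in edgeR and was not called by DESeq2 or limma on FPKM either.

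Per length, the levels of the 10 genes in ND ran from Actb at 172 ± 5.54 FPKM through Krt18 at 115 ± 34.3, Krt8 at 99.9 ± 27.7, Tuba4a at 76.6 ± 2.92 and Tubb2a at 64.1 ± 14.9 to Actg1 at 38.1 ± 8.61 (SD, n = 3 each). Below these came Tuba1c at 32.9 ± 1.66, Tuba1b at 32.6 ± 1.99, Tuba1a at 14.7 ± 1.39 and Tuba8 at 1.19 ± 0.357 FPKM. Neighbours from Krt18 to Tubb2a, and from Actg1 to Tuba1b, differed by less than the sum of their SDs. In HFD_HDCA Actb was again highest at 116 ± 21.1 FPKM and Tuba8 lowest at 0.553 ± 0.207.

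Across the 9 libraries most of the 10 genes varied together, as a description in which the points share library, depth and diet. Pearson's r of log2 CPM (prior count 3) was 0.93 for Tuba1b and Tuba4a, 0.92 for Actb with Tuba1c and with Tubb2a, and 0.80 for Krt8 and Krt18. Tuba8 had r between -0.72, with Actg1, and 0.59, with Krt18. Of the genes outside the 10, those most like Actb over the 9 libraries included Cs, Kpnb1, Hn1l and Acaca (r from 0.97 to 0.98). Those most like Tubb2a were Leo1, Man1a2, Kpnb1, Gfm1 and Zfp295 (0.96 to 0.97), and those most like Krt8 were Gstm3, Dad1, Rhbg, Cfl1 and Ston2 (0.94 to 0.96). Those most like Tuba8 included Napb, Hip1r, Mup10 and X99384 (0.93 to 0.96).

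Actb is also a common reference gene in quantitative PCR, so its spread was set beside that of 13 other such genes. The coefficient of variation of CPM over the 9 libraries was 29.1% for Actb and 51.8% for Actg1. It was 8.84% for B2m, 9.83% for Ywhaz, 21.1% for Gapdh, 24.6% for Rplp0 and 44.3% for Tfrc. The highest group mean of Actb was 1.72 times its lowest, against 1.10 times for B2m and 1.09 times for Ywhaz. Of the 13, Tfrc was called lower for HFD_HDCA against HFD (adjusted p = 0.0473, edgeR's quasi-likelihood test), and with 1 library left out it was called only in the fit without HFD 1, with adjusted p up to 0.129 in the others. DESeq2 called 1, 3 and 2 of the 13 for HFD against ND, HFD_HDCA against HFD and HFD_HDCA against ND. Of all genes it called 3.02%, 8.62% and 11.1%.

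**Figure D5:**
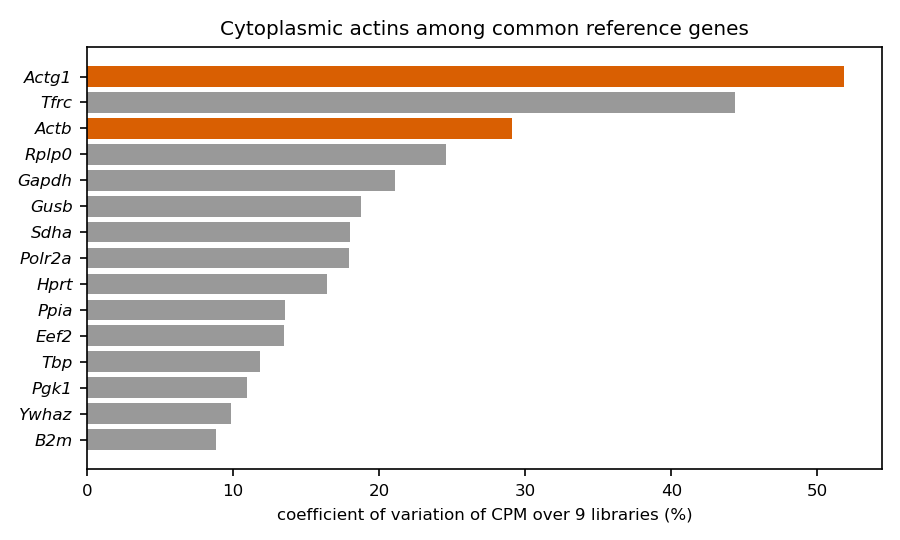
Coefficient of variation of CPM over the 9 libraries (horizontal axis, percent, starting at 0) for 13 laboratory reference genes in grey and for Actb and Actg1 in orange. Actb lies at 29.1%, above all but Tfrc among the 13 reference genes, and Actg1 at 51.8%.

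For the cell types not yet described, the range of summed marker levels was as follows. The 14 stellate cell and fibroblast markers summed to 555 to 624 CPM in ND, 617 to 667 in HFD and 503 to 652 in HFD_HDCA. The 14 endothelial markers summed to 643 to 724, 359 to 687 and 548 to 610.2 CPM in the same order. The T, NK and NKT cell markers (12 of 13 in the tables) summed to 14.7 to 33.5, 10.3 to 19.3 and 11.3 to 12.5 CPM, and the B cell markers (7 of 8) to 3.64 to 5.57, 2.98 to 6.46 and 6.55 to 10.7 CPM. No marker of any list was at 0 in all libraries. Of 8 tested T, NK and NKT markers, edgeR called 1 higher for HFD against ND and 1 lower for HFD_HDCA against HFD. For HFD_HDCA against ND it called 1 of 17 tested macrophage markers higher and 1 of 5 tested smooth muscle markers lower. In the stellate, endothelial, B cell and bile duct lists 0 were called. Of all genes 0.953%, 3.4% and 6.47% were called for HFD against ND, HFD_HDCA against HFD and HFD_HDCA against ND.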

How the data were processed

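Bulk RNA sequencing of 9 mouse livers was analysed, 3 for each diet, with groups and replicate numbers taken from the sample titles. Per the labels and file names, HTSeq gave the authors' gene counts, deposited as whole numbers without normalization. The authors also deposited Cufflinks gene tables in FPKM, per the file headers. The mm10 build, TopHat 1.3.2 and Cufflinks 2.0.2 are listed in the submitters' processing notes with no roles, and the HTSeq version and annotation are not given in the sources used here, nor is the strand option beyond the word antisense in the names of the count files. Rows for reads assigned to no gene were kept out of library sizes and tests, which left 63.9 to 72.1% of the reads in a file.

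Counts were fitted in R 4.3.3 with edgeR 4.0.16: filterByExpr with a minimum count of 10, TMM scaling, and 1 model over all 9 libraries. The robust quasi-likelihood F test was two-sided, with Benjamini-Hochberg adjustment over 12587 genes, and genes were called at an adjusted p under 0.05. CPM uses TMM-scaled library sizes, with factors of 0.919 to 1.07, and the SE is the log2 fold change over the square root of F. FPKM was tested with limma 3.58.1 on log2(FPKM + 0.1), on which scale the change of low genes is understated, and DESeq2 1.42.0 was an alternative. The edgeR fit was also run on counts simulated from the means, library sizes and dispersions of these data. Such counts follow the model of the fit, so they cannot show whether the calls on the real libraries hold. Libraries of a group differed by more than sampling noise (chi-square per degree of freedom 11.1 to 90.8).

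The 10 genes and all gene lists were chosen with earlier results of these data known. Calls of edgeR and DESeq2 in the lists stand beside the shares of all genes given with the 10 genes. For the lists, numbers of negative fitted values and of genes at an unadjusted p under 0.05 have no share over all genes beside them. The same holds for numbers of genes that limma called on FPKM. Those numbers are descriptions, and nothing is read from them. From each list of other cytoskeletal genes, up to 4 called genes with the smallest adjusted p per comparison were named, or the 2 most abundant. Genes most alike were the 5 with the highest correlation for Actb, Tuba8, Tubb2a and Krt8, without predicted genes. Of the markers, the most abundant of each list and 5 genes that check libraries could be named. Other genes named, Stk16, Krt7 and Krt19 among them, were chosen after their values were seen. Promoter sequences came from RefSeq (9 of 10 genes matched, all but Actb), and coding identities were computed from GENCODE M21 transcripts. A few genes that these rules selected, and 1 stretch of sequence, are not reported here.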

Additional observations from a re-analysis of the deposited data

How the results depend on the processing

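DESeq2 called 380, 1085 and 1398 genes for HFD against ND, HFD_HDCA against HFD and HFD_HDCA against ND, and 7 of the 10 genes for HFD_HDCA against HFD. Unfiltered FPKM gave 236 and 519 genes in the HDCA comparisons and 1 of the 10 for HFD against ND. A fit of only HFD and HFD_HDCA called 134 genes. Without both HFD 1 and HFD_HDCA 1, 576 and 977 genes were called for HFD against ND and HFD_HDCA against HFD, and 4 and 7 of the 10. Leaving out 1 library at a time gave 32 to 226, 127 to 672 and 196 to 1213 genes, and 1 to 3, 3 to 8 and 1 to 5 of the 10. The cause of these shifts was not tested.

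Of 210 values of the 10 log2 fold changes under the alternatives in each comparison, 194, 180 and 190 had the same direction and side of the threshold. Tuba1b for HFD against ND changed sign, to 0.36, 0.35 and 0.36 in the FPKM settings, to 0.094 without both HFD 1 and HFD_HDCA 1, and to 0.03, 0.11 and 0.04 without ND 1, HFD 1 and HFD 2. Its range over the fits without 1 library was -0.22 to 0.11. Krt18 for HFD_HDCA against HFD changed sign, to 0.03, 0.08 and 0.10 without HFD 2, HFD 3 and HFD_HDCA 3, in a range of -0.11 to 0.10. Tuba8 for HFD_HDCA against HFD passed neither with only these diets (adjusted p = 0.0689) nor on log2(FPKM + 1) (0.111) or unfiltered FPKM (0.0637), and rests on 4 to 6 reads per HFD library. Total-count scaling, chosen after seeing the data, added Actb (adjusted p = 0.0423) and Tuba1b (0.0447) for HFD_HDCA against HFD.

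With the replicate number as a block, 82, 328 and 715 genes and 2, 4 and 3 of the 10 were called, and Tuba1b for HFD_HDCA against ND had an adjusted p of 0.0558. Same-numbered libraries had correlated deviations from -0.165 to 0.142, others from -0.193 to 0.169, and those of the libraries numbered 1 were 0.142, 0.135 and 0.0792. Deviations from a mean of 3 libraries cancel within a group, so these correlations cannot settle whether the number marks something shared. The labels do not say what it marks, so the libraries were not treated as paired in the main fit.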
